A study of Rattus norvegicus with 6 samples.

Results

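The Bcl2 family decides whether a cell commits to mitochondrial apoptosis, and 10 of its transcripts are described here in cultured rat retinal ganglion cells (RGCs), the neurons that carry visual signals from the eye to the brain. The members were taken by gene symbol from the deposited expression table, which lists 17366 transcripts at 1 per symbol, and all 10 were found. They are the survival proteins Bcl2, Bcl2l1 (Bcl-xL), Bcl2l2 (Bcl-w) and Mcl1, the pore-forming effectors Bax and Bak1, and the BH3-only proteins Bbc3 (Puma), Hrk, Bcl2l11 (Bim) and Bid.

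In this pathway the effectors Bax and Bak1 open the outer mitochondrial membrane, which lets cytochrome c out and starts the caspase cascade. Survival members hold the effectors and the BH3-only proteins in check, and BH3-only proteins either neutralise the survival members or activate the effectors directly. Developing and injured RGCs are a textbook case of Bax-dependent neuronal death, and neurons commonly switch on Bbc3, Hrk and Bcl2l11 through the kinase route that follows axon damage or loss of trophic support.

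The study asked how RGC cultures respond to Chrdl1 (chordin-like 1), a secreted antagonist that binds BMP growth factors. Both groups came from Sprague Dawley rats labelled P5 and were cultured for 10 days. One group of 3 libraries received Chrdl1 at 1 µg/ml for 12 h, and the other 3 received the vehicle, which held 0.1% BSA and 4 mM HCl. Each title ends in a numeric code that 1 vehicle and 1 Chrdl1 library share, and these pairs are called A, B and C here; the 3 values of a group are listed in that order. The meaning of the code is not stated in the labels. Nothing in them ties the 3 libraries of a group to different animals or dishes, and p-values therefore reflect the spread among these libraries, which may be technical. The labels disagree on the tissue: visual cortex appears in the extraction protocol and RGC cultures in all the others.

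Values are FPKM, fragments scaled to transcript length and sequencing depth, and whole-read steps in these values gave read totals of 14546600 (vehicle, pair B) to 26551800 (vehicle, pair C). All 10 listed RGC markers that the table holds were present at 1 FPKM or more, with a summed level of 2338 to 2631 FPKM in vehicle and 2207 to 2629 FPKM in Chrdl1 libraries. Gfap, which marks astrocytes and reactive glia, was at most 1.24 FPKM. Microglia, mural and fibroblast markers differed widely between the pairs. The 10 microglia markers summed, vehicle before Chrdl1, to 241 and 197 FPKM for pair A, 26.2 and 14.3 for pair B, and 294 and 264 for pair C. The 8 endothelial and mural markers, mostly Acta2, summed to 90.6 and 82.3, 18.1 and 12.6, and 137 and 133 FPKM in the same order. The 6 fibroblast markers summed to 47.0 and 43.4, 27.9 and 18.5, and 107 and 116 FPKM, with Col1a2 listed at 0 in all 6 libraries. The 8 astrocyte and Müller glia markers, mostly Glul, summed to between 53.8 and 95.7 FPKM. The 8 oligodendrocyte lineage markers, mostly Cnp, Mbp and Mog, summed to between 32.9 and 37.7. The sum of the 8 dividing cell markers, mostly Pcna, lay between 28.9 and 39.3, with Mki67 at most 0.23 FPKM. The 10 markers of amacrine and other retinal neurons summed to between 212 and 245.

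All 10 transcripts were above 1 FPKM in every library, and the survival members held both the highest and the lowest mean. Bcl2l2 was the most abundant, with 59.0 ± 3.88 FPKM in vehicle against 56.1 ± 4.42 in Chrdl1 libraries (mean ± SD, n = 3 each, as for the values below), which placed its mean above 93.7% of all listed transcripts. Bcl2l2 alone made up 49.4% to 55.2% of the FPKM of the 4 survival transcripts. Bcl2, the founding member of the family, was the least abundant, at 1.57 ± 0.474 and 1.71 ± 0.138 FPKM. Per unit length, Bcl2l1 stood 14.7 to 30.6 times above Bcl2 in the 6 libraries.

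In descending order of mean FPKM the members ran Bcl2l2, Bcl2l1, Bax, Mcl1, Bbc3, Hrk, Bid, Bak1, Bcl2l11 and Bcl2. The ranges of neighbours over the 6 libraries did not overlap at 4 steps of this order, from Bcl2l2 to Bcl2l1, from Mcl1 to Bbc3, from Bak1 to Bcl2l11 and from Bcl2l11 to Bcl2. Bcl2l1 and Bax could not be separated, since Bcl2l1 was the higher in 3 of 6 libraries. Bbc3, Hrk, Bid and Bak1 likewise ran into each other, and Hrk exceeded Bid in only 2 of 6 libraries. FPKM depends on the length of the single transcript listed, from 418 bases for Bcl2l11 to 5066 bases for Hrk, and other isoforms have no value here.

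**Figure D1:**
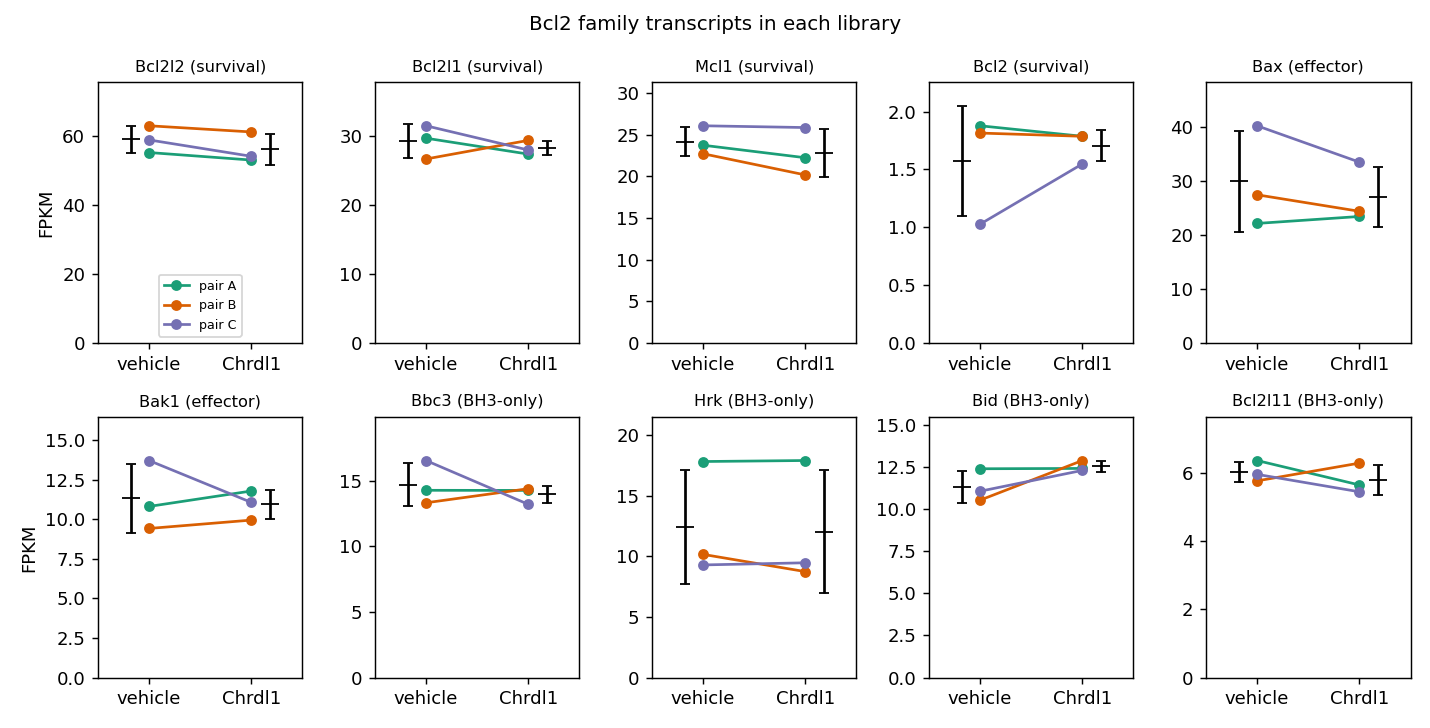
FPKM of each of the 10 transcripts (vertical axes, each starting at 0) in the vehicle and Chrdl1 libraries. Points joined by a line share a title code (pair A, B or C), and the bars beside them give the mean ± SD of each group (n = 3); Hrk was high in both libraries of pair A and Bax in both of pair C, while the groups overlap in every panel.

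Among the survival members, Bcl2l2 (chromosome 15, 33544312 to 33549165, rn6) measured 55.2, 62.96 and 58.9 FPKM in vehicle and 53.02, 61.2 and 54.1 FPKM in the Chrdl1 libraries. Pair B was the high one in both groups, and each Chrdl1 library lay slightly below its vehicle partner while the groups overlapped. The difference, Chrdl1 minus vehicle on the log2(FPKM + 1) scale, was -0.072 (SE 0.0958, 95% interval -0.30 to 0.15, treatment as the only term). With the title code as a replicate block, the 95% interval was -0.21 to 0.061. Bcl2l1 (chromosome 3, 148259594 to 148313810), whose protein guards the mitochondria of mature neurons, measured 29.6, 26.6 and 31.4 FPKM in vehicle and 27.3, 29.3 and 27.9 FPKM in Chrdl1 libraries. It was the steadiest survival transcript, with a coefficient of variation of 6.14% over the 6 libraries, and its pairs moved in both directions.

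Mcl1 (chromosome 2, 197786212 to 197788992), a survival protein known for its rapid turnover, measured 23.7, 22.7 and 26.1 FPKM in vehicle and 22.2, 20.2 and 25.9 FPKM in Chrdl1 libraries. Pair C was highest in both groups, and each Chrdl1 library lay below its partner, by as little as 0.011 on the log2 scale in pair C. Bcl2 (chromosome 13, 26605426 to 26769374) measured 1.88, 1.81 and 1.03 FPKM in vehicle and 1.79, 1.79 and 1.55 FPKM in Chrdl1 libraries. The vehicle library of pair C stood alone as low. It rests on 32 reads there, which allows 0.702 to 1.45 FPKM (exact 95% Poisson interval, covering counting error only), and the Chrdl1 library of the pair on 44 reads, which allows 1.12 to 2.08 FPKM, so the gap of that pair was not resolved at this depth.

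Of the effectors, Bax (chromosome 1, 101451801 to 101457208) measured 22.2, 27.5 and 40.3 FPKM in vehicle and 23.5, 24.4 and 33.6 FPKM in the Chrdl1 libraries. Both libraries of pair C lay above the other 4 and both of pair A below them, so the order of the pairs was the same in each group. Bak1 (chromosome 20, 5609621 to 5618260), the second pore former, measured 10.8, 9.42 and 13.7 FPKM in vehicle and 11.8, 9.95 and 11.1 FPKM in Chrdl1 libraries. Pair B was lowest in both groups, and the vehicle library of pair C was the highest of all 6. Bax exceeded Bak1 in FPKM 1.99 to 3.03 times, least in pair A.

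The BH3-only transcripts among the 10 members were less abundant than Bcl2l2, Bcl2l1 and Mcl1. Of these BH3-only members Hrk varied most, with a coefficient of variation of 35.8% over the 6 libraries. Hrk (chromosome 12, 44008879 to 44029211), a neuronal BH3-only protein that binds Bcl2l1, measured 17.8, 10.2 and 9.29 FPKM in vehicle and 17.9, 8.74 and 9.47 FPKM in the Chrdl1 libraries. Both libraries of pair A were high and the other 4 were low, whichever group they belonged to. These values rest on 749 to 2210 reads per library. The share of Hrk in BH3-only FPKM ran from 20.7% to 35.7%, highest in pair A.

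Bbc3 (chromosome 1, 78261505 to 78267802), a p53 target that binds all survival members, measured 14.3, 13.3 and 16.5 FPKM in vehicle and 14.3, 14.4 and 13.2 FPKM in Chrdl1 libraries. The libraries of pair C were the extremes in opposite groups. Bid (chromosome 4, 153443220 to 153465247), which caspase-8 cleaves to link death receptors to mitochondria, measured 12.4, 10.5 and 11.05 FPKM in vehicle and 12.4, 12.9 and 12.3 FPKM in Chrdl1 libraries. The Chrdl1 libraries lay close together, and 2 of the 3 vehicle libraries lay below all of them. Bcl2l11 (chromosome 3, 120729566 to 120759955), an activator of Bax in trophic factor withdrawal, measured 6.35, 5.76 and 5.95 FPKM in vehicle and 5.64, 6.28 and 5.44 FPKM in Chrdl1 libraries. It rests on 35 to 66 reads per library, its coefficient of variation was 6.12%, and the difference was -0.050 (95% interval with the replicate block -0.27 to 0.17).

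No member passed the test of Chrdl1 against vehicle. In limma over the 10390 tested transcripts, 0% were called (Benjamini-Hochberg adjusted p under 0.05), and 0 of the 10 members were. The adjusted p was 0.9998 for each member, and the smallest unadjusted p among them was 0.240, for Bid. Without adjustment, 18 transcripts and 0 members were under 0.05. With the title code as a replicate block, again 0 transcripts were called, the unadjusted counts were 535 transcripts and 0 members, and the adjusted p of the members ran from 0.878 (Bid) to 0.975 (Bak1). Under the block with 1 pair left out, 25 transcripts were called without pair A, 34 without pair B and 0 without pair C, and again 0 members.

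The intervals limit how large a difference could have gone unseen. With the block, every member's 95% interval stayed within 0.37 on the log2(FPKM + 1) scale, and the widest belonged to Bcl2. This scale understates a change of so low a transcript: the Bcl2 difference of 0.090 became 0.15 with a pseudocount of 0.1, 0.031 with a pseudocount of 5 and 0.23 by voom on the recovered reads. Leaving Bcl2 aside, the farthest bound was 0.32, for Bid. Without the block, Hrk, whose pairs lay farthest apart, had the widest interval, from -0.82 to 0.71, and the block narrowed it to -0.24 to 0.13. Bax went from -0.66 to 0.44 without the block to -0.28 to 0.053 with it.

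**Figure D2:**
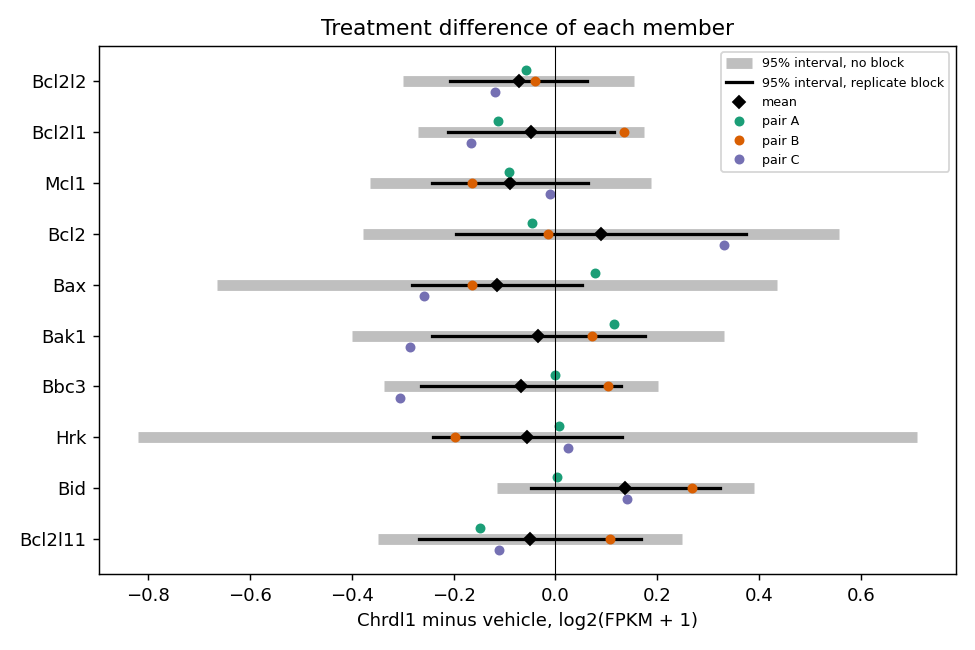
Difference between Chrdl1 and vehicle for each transcript on the log2(FPKM + 1) scale (horizontal axis). Diamonds mark the mean, grey bars and black lines its 95% interval without and with the replicate block, and coloured points the 3 pairs; all 20 intervals include 0, and Hrk and Bax show the strongest narrowing under the block.

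For 3 members all pairs had the same direction. Bid was the only member higher with Chrdl1 in all 3 pairs, by 0.0022, 0.27 and 0.14 on the log2 scale, where 7.55% of all tested transcripts were higher in all pairs. Bcl2l2 and Mcl1 were lower in all 3, 2 of 10 members beside 19.5% of all tested transcripts. The vehicle and Chrdl1 libraries did not overlap for 0 of the 10 members, compared with 2.44% of tested transcripts. The median difference of the 10 was -0.053, with 8 negative and 2 positive, and over all tested transcripts it was -0.028.

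The differences of pair C varied with transcript length. In that pair the median difference was -0.19 for transcripts under 1000 bases, -0.12 from 1000 to under 2000, -0.043 from 2000 to under 4000 and 0.092 at 4000 and over, whereas no length class in pairs A and B went beyond -0.026. In pair C, the members under 1000 bases, Bcl2l11 and Bax, differed by -0.11 and -0.26. Of the 5 from 1000 to under 2000 bases, Bbc3 (-0.30), Bak1 (-0.29) and Mcl1 (-0.011) were negative, and Bid (0.14) and Bcl2 (0.33) were positive. Bcl2l1 and Bcl2l2, from 2000 to under 4000 bases, differed by -0.17 and -0.12, and Hrk, above 4000 bases, by 0.025. The part of length in these values was not tested for single members. With each library's length trend removed, an alternative chosen after seeing the data, Bak1 came to 0.0046 and Bcl2l11 to 0.025, against -0.033 and -0.050 before.

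Summed by role, the balance of the 10 members did not separate the groups. The sums leave out other family genes at high levels. Effector-like Bok was at a mean of 50.9 FPKM in vehicle and 46.1 in Chrdl1 libraries, beside effector sums of 41.3 and 38.1. BH3-only Bad was at 43.0 and 40.1 FPKM, beside BH3-only sums of 44.5 and 44.3. The ratio of survival to effector FPKM was 3.35, 3.09 and 2.17 in vehicle and 2.96, 3.27 and 2.45 in the Chrdl1 libraries, or 2.87 ± 0.618 and 2.89 ± 0.413. The libraries of pair C had the lowest ratio in each group, where Bax was high. BH3-only transcripts held 26.2%, 20.8% and 19.99% of the FPKM of the 10 members in vehicle and 26.4%, 22.4% and 20.8% in Chrdl1 libraries. Pair A had the largest share in both groups, where Hrk was high, and the share was higher with Chrdl1 in each pair, by 0.284, 1.52 and 0.782 percentage points (SD of the 3 differences 0.622). The BH3-only sum itself differed by -0.621, 2.52 and -2.44 FPKM within the pairs, while the survival sum was lower with Chrdl1 in each, the differences being -6.08, -1.67 and -7.96 FPKM. These sums describe RNA and were given no test.

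**Figure D3:**
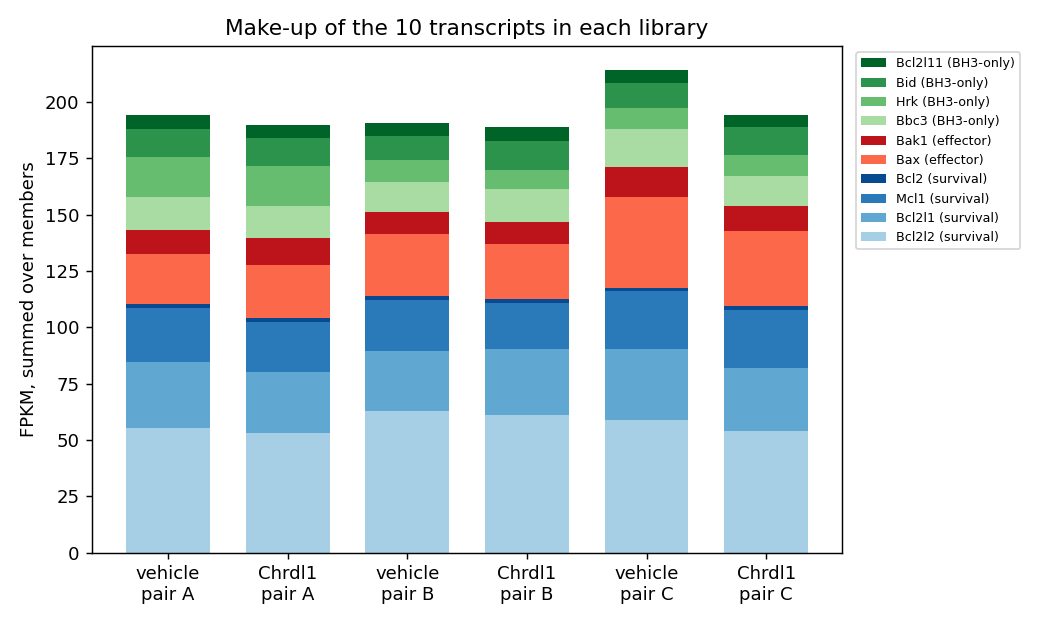
Stacked bars of the summed FPKM of the 10 transcripts (vertical axis, from 0) in each library, vehicle beside Chrdl1 for each pair. Blue segments are survival, red effector and green BH3-only transcripts; the total runs from 189 to 214 FPKM, with Bcl2l2 the largest segment of every bar.

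More transcripts passed the test between the pairs than the test between the groups. A limma F test between the 3 title codes, with treatment as a term, called 4930 transcripts (47.4%) and 2 of the 10 members, Hrk (adjusted p = 3.5e-05) and Bax (adjusted p = 0.00033). Hrk was 1.90 times as high in pair A as in the mean of B and C, a log2 difference of 0.86 (95% interval 0.66 to 1.05, limma adjusted p = 4.3e-05), while C and B differed by -0.0066 (-0.23 to 0.22). Bax was 1.62 times as high in pair C as in A, a log2 difference of 0.67 (0.46 to 0.87, limma adjusted p = 0.00029), and 1.42 times as high as in B, a difference of 0.49 (0.28 to 0.69, limma adjusted p = 0.0017). Pair B against A did not pass for Bax, at 0.18 (-0.028 to 0.38, limma adjusted p = 0.179).

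Both libraries of pair A lay above the other 4 for 1 member, Hrk, and for 13.6% of tested transcripts. The same held of pair C for Bax and Mcl1, beside 23.4%, and of pair B for Bcl2l2, beside 17.8%. The adjusted p between codes was 0.0547 for Mcl1, 0.0926 for Bak1, 0.106 for Bcl2l2 and 0.182 for Bcl2 (limma), and 0.719 to 0.858 for Bcl2l1, Bid, Bbc3 and Bcl2l11. Which members passed depended on the libraries used, and so did the number of called transcripts over the whole table. Bcl2l2 and Mcl1 also passed when the vehicle library of pair C was omitted. Bcl2l2 and Bak1 did so without the Chrdl1 library of that pair. Each omission leaves its code with a single library, so these calls are not read as results about the members. Omitting the Chrdl1 library of pair A left 3148 called transcripts, Hrk and Bax among them. The median difference between the highest and lowest code was 0.23 over the members and 0.31 over all tested transcripts.

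The codes carried other differences as well. Microglia and mural markers were low in pair B and high in both A and C, and fibroblast markers were highest in C, whereas Hrk was high only in A and Bax was lowest in A and highest in C. In these bulk libraries, fewer cells of a type and less RNA per cell cannot be told apart, and the part of cell makeup in the Hrk and Bax differences was not tested. Transcripts most like Hrk over the 6 libraries, by Pearson r on log2(FPKM + 1), included Sdc3 (r = 0.997) and Ttyh3 (0.996). Sdc3, a neuronal syndecan, measured 58.1 FPKM (vehicle) and 56.8 FPKM (Chrdl1) for pair A and 38.4 to 42.2 FPKM in the other 4. The 6 libraries share 3 codes, so this likeness describes the step between pair A and the rest.

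The remaining Bcl2 family held a larger step between codes than Hrk or Bax, in Bcl2a1. Of 15 listed genes, 14 were in the table and 10 were tested, with 0 called for Chrdl1 (2 positive, 8 negative, median -0.085) and 5 between codes, a share close to the 47.4% of all tested transcripts. Bcl2a1, a survival member typical of leukocytes, measured 7.29, 1.19 and 13.9 FPKM in vehicle and 5.24, 1.26 and 11.4 FPKM in the Chrdl1 libraries (limma adjusted p between codes = 4.2e-08). Its order of pairs, B lowest and C highest, was also that of the summed microglia markers. The endothelial and mural, fibroblast, astrocyte and Müller glia, and dividing cell sums had this order too. The part of cell makeup in the Bcl2a1 difference was not tested. Bmf, a BH3-only protein, was low in pair B as well, at a mean of 0.984 FPKM against 2.46 in A and 2.57 in C (limma adjusted p between codes = 0.00088). Bok, an effector-like member, stood at 50.9 ± 5.79 FPKM with vehicle and 46.1 ± 8.67 with Chrdl1, above Bax and Bak1. Its call between codes (adjusted p = 0.0097, limma) was lost without the Chrdl1 library of pair A (0.275) and with no filter on low values (0.0549). Bad, a BH3-only target of survival kinases, was at 43.0 ± 3.85 and 40.1 ± 4.36 FPKM, and Pmaip1 (Noxa), a BH3-only partner of Mcl1, at 10.1 ± 0.463 and 11.3 ± 1.17 FPKM.

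Bcl2l15, a distant family member, was below the level tested. It measured 0.194, 0.489 and 0.535 FPKM in vehicle and 0.914, 0.725 and 1.27 FPKM in the Chrdl1 libraries. The groups did not overlap, on 4, 6 and 12 reads in vehicle and 18, 14 and 26 reads in Chrdl1 libraries. With no filter on low values, 14171 transcripts were tested, and groups did not overlap for 2.94% of them. In that fit the Bcl2l15 difference was 0.49 (SE 0.146, limma unadjusted p = 0.0151, adjusted p = 1), and with the replicate block the unadjusted p was 0.0045 and the adjusted p 0.882. It did not pass the test.

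Upstream and downstream of the 10 members, 0 genes of any list were called for Chrdl1, with or without the block. The list medians lay between -0.085 for the remaining Bcl2 family and 0.11 for Mcl1 turnover, and 6 of the 9 medians changed sign when 1 of the 6 libraries was left out. In the axon-injury kinase route, which drives Bbc3, Hrk and Bcl2l11 in damaged neurons, 14 of 17 tested genes were called between codes, and among p53, FoxO and E2F regulators and targets 11 of 17 were, beside the 47.4% of all transcripts. The counts were 3 of 11 among apoptosome genes and caspases, 5 of 13 among mitochondrial partners, 6 of 15 among survival kinases, 2 of 7 among death receptors, 2 of 6 among genes of Mcl1 turnover and 4 of 6 among inhibitors of apoptosis. No list was tested against the other transcripts.

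**Figure D4:**
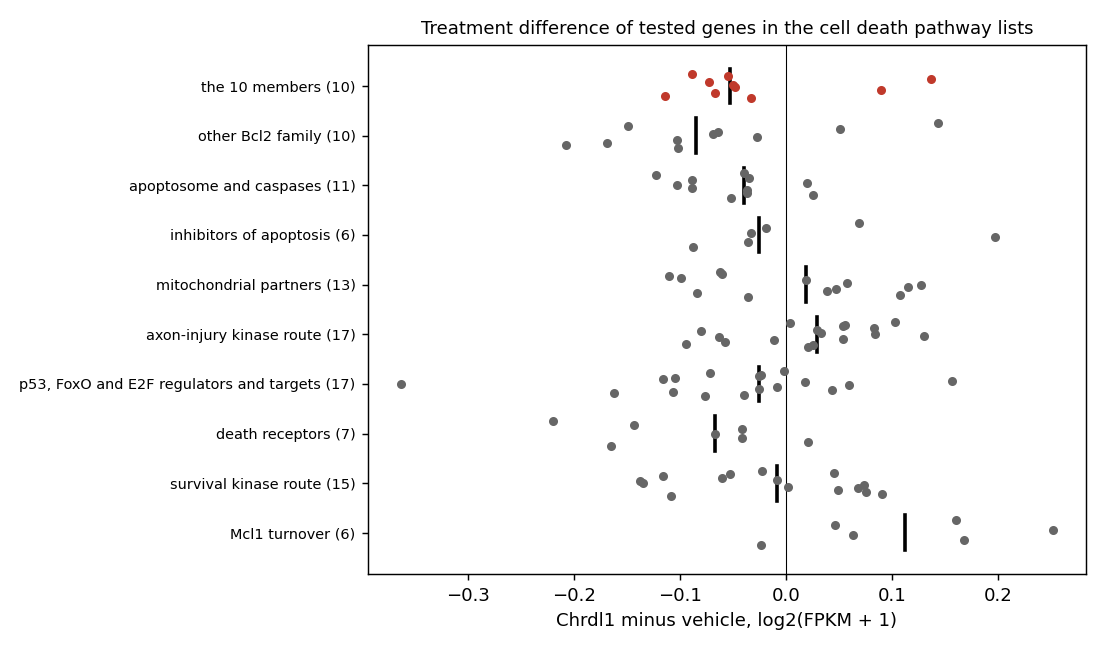
Difference between Chrdl1 and vehicle on the log2(FPKM + 1) scale (horizontal axis) for every tested gene of 10 lists, the 10 members in red, with a black bar at each list's median and the number of tested genes in brackets. No point passed the test, and the list medians lie between -0.085 and 0.11.

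Among the called genes, Atf3 was highest in pair A, as Hrk was, while the highest pair differed among the genes of its list. Atf3, a stress-induced transcription factor of the axon-injury route, measured 22.7, 13.7 and 11.7 FPKM in vehicle and 21.9, 15.4 and 11.4 FPKM in the Chrdl1 libraries (limma adjusted p between codes = 3.9e-05). Mapk10, the neuronal JNK kinase, had its low level in pair C, with a mean of 61.4 FPKM against 82.9 in A and 86.1 in B (adjusted p = 0.00063, limma). Bbc3 and Bcl2l11, which this route also drives, did not pass between codes (limma adjusted p = 0.775 and 0.858). The part of this route in the Hrk difference was not tested.

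Cdkn1a, the cell cycle inhibitor p21 and a classic p53 target, measured 59.5, 67.2 and 111 FPKM in vehicle and 56.0, 60.3 and 93.2 FPKM in the Chrdl1 libraries, highest in pair C in both groups as Bax was (adjusted p between codes = 8.1e-06, limma). Gadd45b, a stress-response gene, also peaked in pair C, at a mean of 7.03 FPKM against 2.81 in A and 1.59 in B (adjusted p = 1.7e-05, limma). The peak in pair C was not general to their list, where Phlda3 had means of 55.5 FPKM in A, 66.7 in B and 65.1 in C. Bbc3, itself a p53 target, did not pass between codes (adjusted p = 0.775, limma). Mfn1, which fuses mitochondria, had a mean of 9.34 FPKM in pair A, 15.1 in B and 18.1 in C (adjusted p = 6.7e-05, limma). Birc3, an inhibitor of apoptosis protein, was lowest in pair B, at a mean of 0.548 FPKM against 1.09 in A and 2.23 in C (adjusted p = 0.00095, limma). Gadd45b and Birc3, like Bcl2a1, had the order of the summed microglia markers, B lowest and C highest. The part of cell makeup in their differences was not tested.

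Other genes that act around the members gave no call for Chrdl1 either. Akt1, a kinase that phosphorylates Bad, stood at 74.2 ± 3.54 FPKM with vehicle and 68.7 ± 1.99 with Chrdl1. Usp9x, which removes ubiquitin from Mcl1, stood at 42.9 ± 5.43 and 47.9 ± 2.78 FPKM, and Trim17, a ubiquitin ligase for Mcl1, at 1.31 ± 0.687 and 1.70 ± 0.395 FPKM. Casp9, the initiator caspase of the apoptosome, was at 12.5 ± 0.637 and 11.6 ± 0.718 FPKM. Cflar, which blocks caspase-8 upstream of Bid, was at 6.91 ± 0.428 and 6.06 ± 0.543 FPKM, and the death receptor Tnfrsf21 at 19.8 ± 1.56 and 17.8 ± 1.67 FPKM.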

How the data were processed

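Per the labels' protocols, an RNeasy kit gave the RNA and a stranded mRNA kit the libraries. The submitters' processing notes name FastQC, STAR (2.4.0k), the program HOMER (4.8.3) and, as genome build, rn6. The authors deposited 1 table of FPKM values; its annotation release and filters on reads are, in the sources used here, not given. Coordinates are those of the table. Read totals were recovered from FPKM times length (99.6% to 100% of values above 0 were whole reads within 0.0005 FPKM), and exact Poisson intervals cover counting error only.

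Transcripts with FPKM of at least 1 in 3 or more libraries were tested on log2(FPKM + 1), computed from the deposited FPKM, with limma 3.58.1 in R 4.3.3 (eBayes with trend, two-sided, Benjamini-Hochberg). A fold change on this scale understates the change of low genes. Treatment was the only term, or treatment with the title code for the F test and the block. Deviations from the group means correlated within pairs at 0.82, 0.86 and 0.84, so the codes were taken to pair the libraries, a pairing that comes from the titles and this check. The fit was tested on simulated data. Python 3.11.15 with numpy 2.4.6, pandas 2.3.3 and matplotlib 3.10.9 did the rest.

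The members and lists were chosen with earlier results of these data known. From each list up to 4 genes were eligible to be named, the 2 with the smallest unadjusted p for Chrdl1 and the 2 with the smallest p between codes, and any detected gene of the remaining Bcl2 family, and also the 3 genes most like Hrk; some of these are not reported here. Alternatives were the block, other pseudocounts, filters and normalizations, voom on the recovered reads, and leaving out each library or pair.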

Additional observations from a re-analysis of the deposited data

How the results depend on the processing

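No member was called for Chrdl1 against vehicle under any alternative run, with the smallest adjusted p at 0.874 (Bbc3, block without pair B). The replicate block gave 0 called transcripts, as did every other setting except the block without pair A (25) and without pair B (34). With the block, Hrk reversed without pair B (0.016), and Bcl2 (-0.030), Bcl2l1 (0.011), Bak1 (0.093) and Bbc3 (0.052) without pair C. The length trend, removed with or without the block, reversed Bak1 (0.0046) and Bcl2l11 (0.025). Leaving out single libraries, the log2 difference ran from -0.36 to 0.22 for Hrk, -0.074 to 0.18 for Bcl2, -0.11 to 0.0044 for Bcl2l1, -0.30 to 0.11 for Bax, -0.15 to 0.10 for Bak1 and -0.13 to 0.015 for Bbc3, while Bcl2l2, Mcl1, Bcl2l11 and Bid kept their sign. Under the same omissions, the difference of group means ran from -0.33 to 0.26 for the survival to effector ratio. For the BH3-only share it ran from -0.76 to 2.78 percentage points. Such omissions leave the codes unequal between groups, and the cause of each reversal was not tested. Between codes, the called members numbered 2 to 4 without single libraries and 4 after quantile normalization, which added Bcl2 (0.0174) and Bcl2l2 (0.0193). The called transcripts numbered 3148 (without the Chrdl1 library of pair A) to 5581, with fewer samples in each fit. Hrk and Bax were called between codes in every setting run. Counting error limits Bcl2, Bcl2l11 and Bcl2l15, which have at most 66 reads per library.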
